A study of Homo sapiens with 4 samples.

Results

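The PF+3%PEGDA EPCaT, the engineered prostate cancer tissue (EPCaT) with the most polymer added to its gel, was compared with a flat (2D) coculture of the same cells. The comparison took every gene with 1 or more CPM (counts per 1000000, after scaling) in either library, which gave 14417 genes of 17791 in the table, and 14856 genes reached that level in any of the 4 libraries. An EPCaT holds PC-3 cells, an epithelial line from a bone metastasis of prostate cancer, and BJ-5ta cells, foreskin fibroblasts immortalised with telomerase, inside a poly(ethylene glycol)-fibrinogen (PF) hydrogel. The tissues in PF, in PF+2%PEGDA and in PF+3%PEGDA were seeded alike, at 20000000 cells per mL with 5 PC-3 cells to 1 BJ-5ta cell, were kept in PC-3 medium and were lysed on day 15. The 2% and 3% (w/v) gels carried extra poly(ethylene glycol) diacrylate (PEGDA), a crosslinkable polymer, and the PF gel carried none. The 2D coculture grew without gel, and its RNA came from 1000000 cells. Its age and cell ratio are not in the labels. Each tissue library pooled RNA of more than 2 tissues, the labels name no drug, and each of the 4 groups had 1 library.

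Cells in a thick gel receive oxygen and nutrients by diffusion, and they meet a matrix on all sides. Low oxygen stabilises the hypoxia-inducible factors (HIFs), which switch on glycolysis, glucose uptake and angiogenic genes. A second set of sensors responds to unfolded protein in the endoplasmic reticulum (ER) and to amino acid shortage, through XBP1, ATF6 and ATF4. Stiffness and cell spreading are read through actin, SRF and the coactivators YAP and TAZ, whose targets include matrix and contractile genes.

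Library totals ran from 13760301 counts (PF+3%PEGDA) to 15687894 (PF), and 1 count was worth 0.0599 to 0.0731 CPM. With 1 library per group there is no replicate check, so no p-value is given. A gene is called higher or lower when its levels differed at least 2-fold and the exact 95% interval of the ratio excluded equality, and these intervals cover counting error only. Of the tested genes, 28.1% had counts that were not whole numbers in some library, which means that reads were divided among overlapping or similar genes by estimate.

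Relative to 2D, the PF+3%PEGDA tissue had 1701 genes higher, 11.8% of the 14417 tested, and 1564 lower, 10.8%, so that 22.6% were called in all. At 4-fold or more there were 611 higher (4.24%) and 470 lower (3.26%), and at 10-fold or more 209 higher and 125 lower. The median log2 ratio over all tested genes was -0.02, with quartiles at -0.50 and 0.49. The genes that were higher summed to 126128 CPM in PF+3%PEGDA and 39767 CPM in 2D. The genes that were lower summed to 55339 CPM in PF+3%PEGDA and 174556 CPM in 2D. Of the tested genes, 13217 reached 1 CPM in both libraries, 640 only in PF+3%PEGDA and 560 only in 2D. The called shares were largest among the scarce genes. Below 5 CPM in the higher library, 23.6% were higher and 20.1% lower, and at 100 CPM or more the shares were 8.74% and 9.94%.

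**Figure D1:**
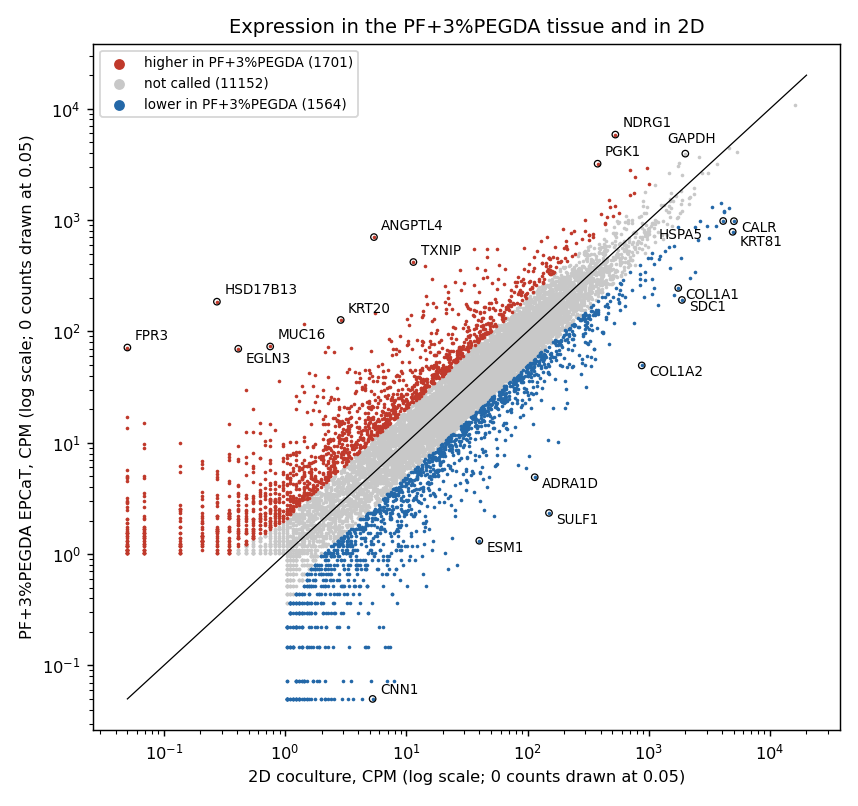
Expression of 14417 genes in the PF+3%PEGDA EPCaT (vertical axis) and in the 2D coculture (horizontal axis), in CPM on log axes, 1 point per gene, with equality as the line. The 1701 higher genes lie above the grey band and the 1564 lower genes below it, and the named genes are circled.

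The genes that ranked first by the interval bound nearest to equality were a mixed group of secreted, lipid-linked and epithelial genes. FPR3, a formyl peptide receptor best known from myeloid cells (chromosome 19, 51795163 to 51826189, GRCh38), had 979 counts in PF+3%PEGDA and 0 in 2D. Against a floor of 3 counts in the 2D library it was at least 349-fold higher. HSD17B13, a lipid droplet enzyme of liver, measured 185 CPM in PF+3%PEGDA and 0.274 CPM in 2D, where it had 4 counts. ANGPTL4, a secreted inhibitor of lipoprotein lipase that HIF and PPAR factors induce, measured 703 CPM in PF+3%PEGDA and 5.41 CPM in 2D, 129.9-fold higher (interval 104 to 164). The lipid carrier FABP4 stood at 116 CPM in PF+3%PEGDA against 1.44 CPM in 2D, and the glucose-responsive arrestin TXNIP at 419 against 11.4 CPM. Among epithelial surface and filament genes, the mucin MUC16 reached 73.1 CPM in PF+3%PEGDA and 0.753 CPM in 2D, and the keratin KRT20 127 and 2.88 CPM. KRT20 was 44-fold higher (interval 32.4 to 61.3).

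Others at the top of this ranking had few or no reads in 2D. UTS2, which encodes the vasoactive peptide urotensin II, had 233 counts in PF+3%PEGDA and 0 in 2D, at least 83-fold higher. It also differed between gels, with 1.08 CPM in PF, 13.1 CPM in PF+2%PEGDA and 17 CPM in PF+3%PEGDA. The bile salt pump gene ABCB11 had 207 counts in PF+3%PEGDA and 1 in 2D, a ratio of 221 (interval 39.3 to 8776). The uncharacterised FAM177B was at least 66.2-fold higher against the floor. HSD11B2, which inactivates cortisol, measured 36.1 CPM in PF+3%PEGDA and 0.89 CPM in 2D. It stood at 9.11 CPM in PF, so the gels with PEGDA were above the gel without it.

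Among the genes called higher, the largest gain in CPM was that of NDRG1, a stress and differentiation gene induced by hypoxia. It measured 5851 CPM in PF+3%PEGDA and 529.9 CPM in 2D, 11-fold higher (interval 10.8 to 11.3). CPM are not divided by transcript length, so a rank by CPM favours long transcripts. The next 7 gains in CPM among called genes were the glycolysis genes PGK1, LDHA, ENO1 and ALDOA, the fatty acid desaturase SCD, LRATD2 and the keratin KRT19. KRT19 stood at 1763 CPM in PF+3%PEGDA and 756 CPM in 2D.

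Genes of the low-oxygen response were mostly higher. Of 36 HIF-linked genes outside glycolysis, 29 were higher and 1 was lower. Their median log2 ratio was 1.49, against -0.02 over all tested genes. Genes that sense or limit the response were among them. EGLN3, a prolyl hydroxylase that marks HIF for destruction, measured 69.8 CPM in PF+3%PEGDA and 0.411 CPM in 2D (169.9-fold, interval 77.8 to 464), and its relative EGLN1 293 and 92.3 CPM. Acid handling genes rose too. CA9, a cell surface carbonic anhydrase, had 123 counts in PF+3%PEGDA and 1 in 2D, a ratio of 131 (interval 23.1 to 5232), and the lactate exporter SLC16A3 measured 588 and 207 CPM. HILPDA, which blocks fat breakdown at lipid droplets, stood at 295 CPM in PF+3%PEGDA and 16.2 CPM in 2D, and the vasodilator ADM at 141 and 13.7 CPM.

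Mitophagy receptors, collagen hydroxylases and chromatin demethylases of this response rose by smaller factors. BNIP3 measured 309.8 CPM in PF+3%PEGDA and 45.9 CPM in 2D, and BNIP3L 347 and 112 CPM. P4HA1, a subunit of collagen prolyl hydroxylase, was 4.2-fold higher at 828 against 197 CPM, and the oxidase ERO1A, which serves disulfide formation, 2.31-fold higher. The histone demethylase KDM3A was 2.15-fold higher. NDUFA4L2, a mitochondrial HIF target, went the other way at 2.41 CPM in PF+3%PEGDA and 5.75 CPM in 2D. VEGFA, the main angiogenic factor of the HIF response, did not pass, with 159 CPM in PF+3%PEGDA and 154 CPM in 2D (ratio 1.03, interval 0.974 to 1.1). IGFBP3, at 806 and 919 CPM, and STC2, at 634 and 1124 CPM, were the uncalled members with the most reads.

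Glycolysis was higher at nearly every step. Of 22 genes of glucose uptake and glycolysis, 18 were higher and 0 lower, and the median log2 ratio was 1.74. The glucose transporter SLC2A1 measured 1004 CPM in PF+3%PEGDA and 300.0 CPM in 2D, and the first enzyme HK2 386 and 141 CPM. Phosphofructokinase PFKL was 4.1-fold higher and PFKP 3.63-fold, but the muscle form PFKM stood at 42.2 CPM in PF+3%PEGDA and 42.9 CPM in 2D. In the middle of the pathway, ALDOC was 14.4-fold higher, ALDOA 3.19-fold and TPI1 3.32-fold. PGK1, the first step that makes ATP, measured 3206 CPM in PF+3%PEGDA and 378 CPM in 2D, 8.47-fold higher (interval 8.24 to 8.71). At the end of the pathway LDHA, which turns pyruvate into lactate, measured 2795 and 698 CPM.

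GAPDH lay just under the 2-fold rule. It measured 3947 CPM in PF+3%PEGDA and 2001 CPM in 2D, a ratio of 1.97 (interval 1.94 to 2.0), and PKM measured 3281 and 1767 CPM. Several of these enzymes have processed pseudogenes, so part of their reads may have been shared. Of the genes that steer pyruvate and flux, the pyruvate dehydrogenase kinases PDK1 and PDK3 were 5.51- and 8.89-fold higher, and the regulators PFKFB3 and PFKFB4 4.75- and 12.3-fold. Glycogen genes followed, with 6 of 11 higher and 0 lower. The synthase GYS1 stood at 135 CPM in PF+3%PEGDA and 49.3 CPM in 2D, the branching enzyme GBE1 at 174 and 70.0 CPM, and the liver phosphorylase PYGL at 333 and 135 CPM. Nuclear genes of the respiratory chain did not move with them. The 13 mitochondrially encoded genes listed were absent from the deposited counts and could not be compared. None of 28 nuclear oxidative phosphorylation genes was called in either direction, and their log2 ratios ran from -0.76 to 0.70.

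Upstream sequences of 3 of these genes are shown because each holds the core letters that HIF recognises, ACGTG, on 1 strand or both. They come from RefSeq on GRCh38.p14 and end before the transcription start. CA9 spans chr9:35673868-35673927, plus strand; P4HA1 spans chr10:73096927-73096986, minus strand; LDHA spans chr11:18394363-18394502, plus strand. Matches are in capitals, read on either strand, and in LDHA matches on the 2 strands overlap at the palindrome CACGTG.
CA9: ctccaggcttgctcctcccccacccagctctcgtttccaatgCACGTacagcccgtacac
P4HA1: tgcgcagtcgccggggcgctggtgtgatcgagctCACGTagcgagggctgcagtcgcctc
LDHA: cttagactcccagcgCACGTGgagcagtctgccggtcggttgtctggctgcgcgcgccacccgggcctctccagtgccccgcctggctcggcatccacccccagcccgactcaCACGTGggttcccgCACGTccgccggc
In windows of 300 bases, 250 before and 50 after the start, the letters were present in 17 of 29 hypoxia-list promoters (58.6%) and 9 of 21 glycolysis promoters (42.9%). They were present in 21.6% of all 27305 promoters. The hypoxia list is built on known HIF targets, so its share is not independent of the list. A match is a description of letters only. Of 24 promoters of secretory coat genes, a list with 2 of 28 members higher, 18 held it.

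**Figure D2:**
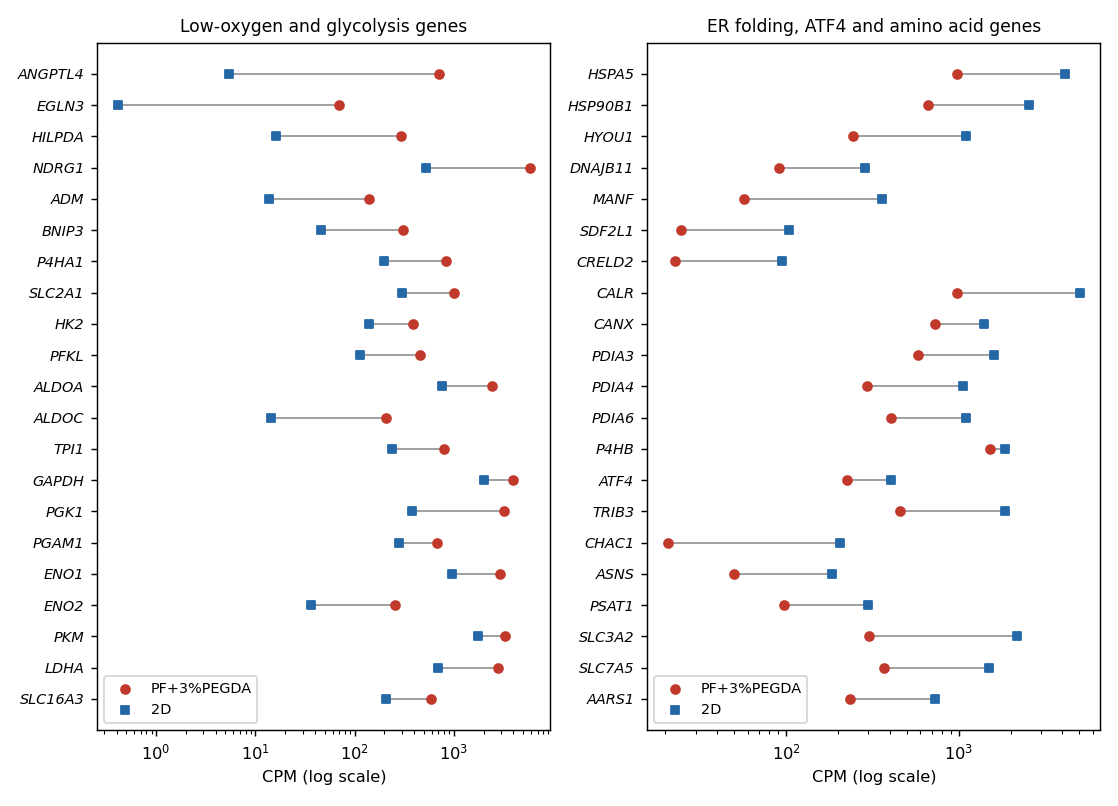
Levels of 21 genes of the low-oxygen response and glycolysis (left) and 21 genes of ER folding, ATF4 and amino acid supply (right), in CPM on a log axis, with PF+3%PEGDA as circles and 2D as squares. Every circle lies right of its square in the left panel and left of it in the right panel. GAPDH, PKM, CANX, P4HB and ATF4 did not reach 2-fold.

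Genes of protein folding in the ER were lower. Of 26 genes of the unfolded protein response, 0 were higher and 14 lower, and the median log2 ratio was -1.28. The HSP70 chaperone HSPA5, or BiP (chromosome 9, 125234853 to 125241330, GRCh38), measured 979.9 CPM in PF+3%PEGDA and 4109 CPM in 2D, 4.19-fold lower (interval 4.12 to 4.27). The lectin chaperone CALR stood at 976 CPM in PF+3%PEGDA and 5042 CPM in 2D, where few genes had more reads, and the HSP90 of the ER, HSP90B1, at 666 and 2562 CPM. Secreted and cofactor proteins of the response fell too. MANF measured 56.8 CPM in PF+3%PEGDA and 359 CPM in 2D (6.32-fold lower), SDF2L1 24.6 and 103 CPM, and HYOU1 245 and 1099 CPM. The disulfide isomerases PDIA4, PDIA6 and PDIA3 were 3.63-, 2.72- and 2.75-fold lower. The isomerase P4HB did not pass at 1525 CPM in PF+3%PEGDA and 1869 CPM in 2D, and neither did XBP1 at 216 and 252 CPM.

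The ER stress element, CCAAT followed by 9 bases and CCACG, is the site through which ATF6 and XBP1 act with the factor NF-Y. It was found in 22 of 27305 promoters, which is 0.0806%, and 6 of those 22 belonged to the 24 matched promoters of this list. The list is built on known targets, so the match is not independent of it. The 4 genes of the list with the element that were lower are shown from RefSeq on GRCh38.p14, with the fixed letters at both ends in capitals. Where the element lies on the other strand it reads CGTGG, 9 bases and ATTGG, and its CCAAT end is also a CCAAT box. HSPA5 spans chr9:125241374-125241433, minus strand; HSP90B1, with 2 elements, chr12:103930210-103930349, plus strand; CALR chr19:12938369-12938418, plus strand; CRELD2 chr22:49918534-49918593, plus strand.
HSPA5: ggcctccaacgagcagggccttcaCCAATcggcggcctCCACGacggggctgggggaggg
HSP90B1: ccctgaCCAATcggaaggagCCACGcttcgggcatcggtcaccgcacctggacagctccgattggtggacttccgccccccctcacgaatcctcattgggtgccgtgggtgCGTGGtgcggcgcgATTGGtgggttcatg
CALR: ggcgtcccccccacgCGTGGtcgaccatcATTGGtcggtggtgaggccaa
CRELD2: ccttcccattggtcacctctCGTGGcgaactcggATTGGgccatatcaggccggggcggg
CRELD2, an ER stress-inducible isomerase partner, measured 22.8 CPM in PF+3%PEGDA and 95.2 CPM in 2D. CANX and XBP1 carry the element too and were not called, with CANX at 732 CPM in PF+3%PEGDA and 1402 CPM in 2D.

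The amino acid arm moved the same way. Of 23 targets of ATF4 and the integrated stress response, 2 were higher and 14 lower (median log2 ratio -1.26). CHAC1, which degrades glutathione, measured 20.6 CPM in PF+3%PEGDA and 205 CPM in 2D, 9.94-fold lower (interval 8.79 to 11.3), and the pseudokinase TRIB3 456 and 1848 CPM. Enzymes of asparagine, serine and one-carbon synthesis were lower as well, with ASNS at 49.8 CPM in PF+3%PEGDA and 185 CPM in 2D. PSAT1 was 3.09-fold lower, PHGDH 2.41-fold and MTHFD2 2.55-fold. The transcript of ATF4 itself, which is controlled mainly in translation, did not pass at 225 CPM in PF+3%PEGDA and 407 CPM in 2D. The 2 members that rose, DDIT4 and VLDLR, are also known targets of HIF.

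Amino acid transporters split. The chains of the large neutral transporter fell, with the heavy chain SLC3A2 at 302 CPM in PF+3%PEGDA and 2170.1 CPM in 2D (7.19-fold lower) and the light chain SLC7A5 at 368 and 1504 CPM. The cationic transporter SLC7A1 and the glutamine transporter SLC1A5 were 4.37- and 2.52-fold lower. In all 8 of 14 transporters were lower and 3 higher, and among those higher were the cationic transporter SLC7A2, at 27.3 CPM in PF+3%PEGDA and 7.81 CPM in 2D, and SLC7A8, at 9.0 and 3.08 CPM. Of 20 cytosolic tRNA synthetases, which charge tRNAs with amino acids, 0 were higher and 11 lower. AARS1, for alanine, measured 236 CPM in PF+3%PEGDA and 727 CPM in 2D. GARS1, NARS1, IARS1 and MARS1 were 2.57-, 2.59-, 2.56- and 2.55-fold lower, and QARS1 stood at 136 and 134 CPM.

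Ribosome-building genes were lower and ribosomal proteins were not called. Of 27 ribosome biogenesis and MYC-type genes, 0 were higher and 12 lower (median log2 ratio -0.96). MYC itself, the growth-promoting factor, measured 82.2 CPM in PF+3%PEGDA and 324 CPM in 2D, 3.95-fold lower (interval 3.7 to 4.21). The rRNA processing gene RRP12 stood at 27.8 CPM in PF+3%PEGDA and 107 CPM in 2D, the methyltransferase NOP2 at 19.2 and 67.3 CPM, and the pseudouridine synthase DKC1 at 43.3 and 134 CPM. The polyamine enzyme ODC1 was not called, with 1094 CPM in PF+3%PEGDA and 649 CPM in 2D. Of 42 cytosolic ribosomal protein genes 0 were called, with a median log2 ratio of -0.31. Ribosomal protein transcripts are short, and the median over all genes with a known transcript was -0.15 in the shortest of 5 length groups and 0.10 in the longest. The part of transcript length in these values was not tested. Among long non-coding hosts of small nucleolar RNAs, GAS5 was 4.88-fold lower and SNHG8 3.88-fold. The nuclear RNA MALAT1 was 5.26-fold higher at 82.1 against 15.6 CPM.

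Reads assigned to ribosomal RNA genes, summed over 13 genes, several of them near-identical copies, were 7219 CPM in PF+3%PEGDA and 17101 CPM in 2D. They put RNA28SN3, RNA28SN2 and RNA28SN5 among the largest losses in CPM of called genes, and how reads fell among the copies is uncertain. Such reads depend on how much ribosomal RNA was left after the library preparation, which was not tested.

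**Figure D3:**
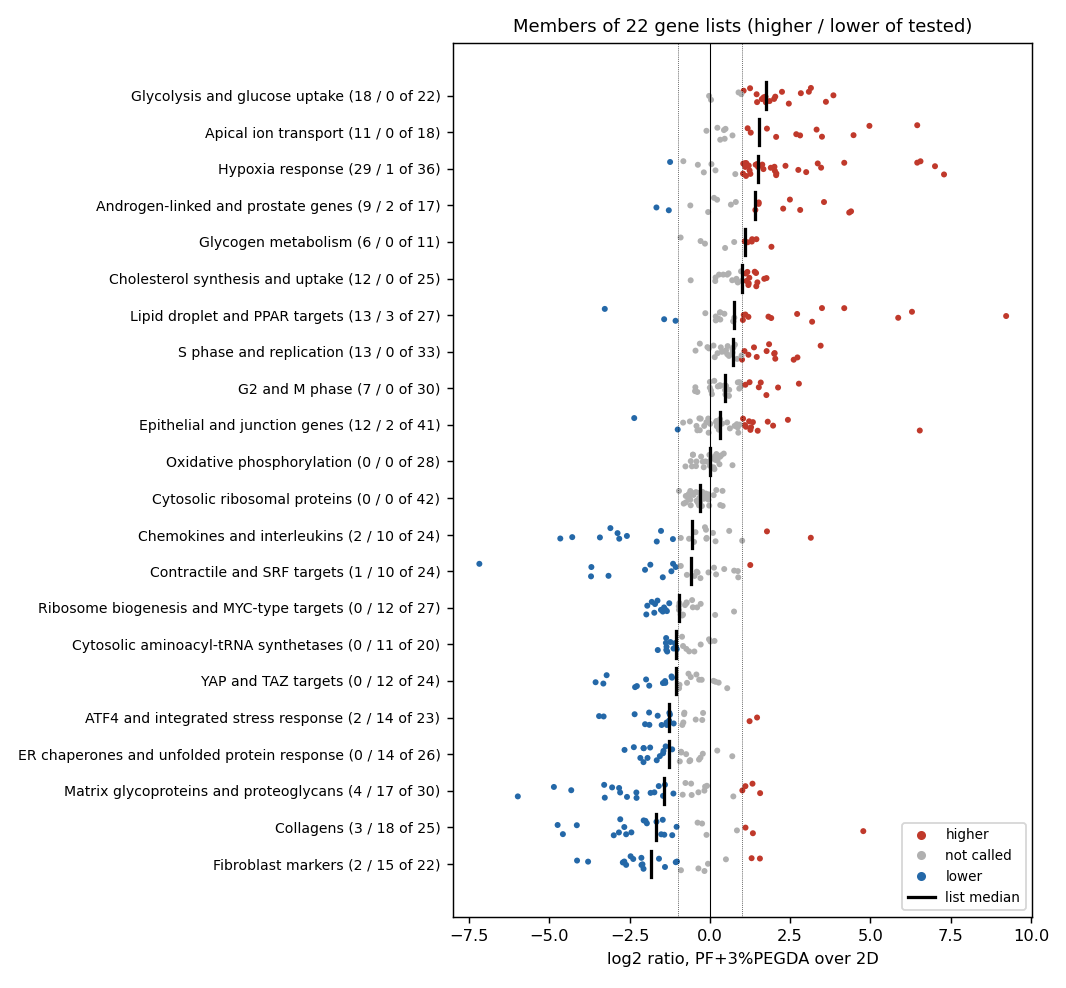
Log2 ratio of PF+3%PEGDA over 2D for each tested member of 22 gene lists (points), with the list median as a black bar and dotted lines at 2-fold. Glycolysis (median 1.74) is at the top and fibroblast markers (median -1.83) at the bottom, and oxidative phosphorylation (nuclear genes only) lies around 0.02.

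Matrix genes were mostly lower. Of 25 collagen genes 3 were higher and 18 lower (median log2 ratio -1.66). The chains of fibrillar collagen I stood at 246 CPM in PF+3%PEGDA and 1751 CPM in 2D for COL1A1, and at 49.4 and 875 CPM for COL1A2. COL1A2 was 17.7-fold lower (interval 16.4 to 19.2) and COL1A1 7.13-fold (6.88 to 7.39). COL3A1 was 6.1-fold lower, COL5A3 24.3-fold and COL11A1 28.6-fold, while COL5A2 measured 177 CPM in PF+3%PEGDA and 231 CPM in 2D and was not called. The basement membrane chains COL4A1 and COL4A2 were 6.93- and 5.45-fold lower, but COL4A5 was 2.53-fold higher. COL2A1, the fibrillar collagen of cartilage, went strongly the other way, with 389.9 CPM in PF+3%PEGDA and 14.2 CPM in 2D (27.5-fold higher, interval 23.9 to 31.8). Of the chains of beaded-filament collagen VI, COL6A1 and COL6A2 were 2.68- and 2.77-fold lower, at 983 and 868 CPM in PF+3%PEGDA against 2630.1 and 2401 CPM in 2D, and COL6A3 was 6.35-fold lower.

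Other matrix proteins and their modifiers followed. Of 30 glycoproteins and proteoglycans, 4 were higher and 17 lower. SULF1, which trims sulfate from heparan chains, ranked first among the lower genes, with 2.34 CPM in PF+3%PEGDA and 150.3 CPM in 2D, 64.2-fold lower (interval 45.3 to 94.1). Fibronectin, FN1, measured 338 and 2402 CPM, the proteoglycan SDC1 191 and 1877 CPM, and tenascin, TNC, 49.9 and 299 CPM. SDC4 and GPC4, which also carry heparan sulfate at the cell surface, were higher at 497 CPM in PF+3%PEGDA against 246 CPM in 2D and at 123 against 41.5 CPM. Perlecan, HSPG2, was 3.38-fold higher, whereas the laminin chains LAMA5, LAMB1 and LAMB3 were 3.3-, 2.58- and 2.06-fold lower. ADAMTS2, which trims procollagen, measured 0.731 CPM in PF+3%PEGDA and 22 CPM in 2D, and the collagen chaperone SERPINH1 95.2 and 285 CPM. The crosslinking oxidase LOX was 2.4-fold higher and transglutaminase TGM2 3.27-fold lower.

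Matrix proteases went both ways, with 6 of 27 higher and 6 lower. The stromelysins rose, MMP10 to 28.5 CPM in PF+3%PEGDA against 1.44 CPM in 2D and MMP3 to 15.2 against 2.81 CPM. The plasminogen activators fell, with PLAU at 295 CPM in PF+3%PEGDA and 852 CPM in 2D and PLAT at 187 and 480.2 CPM. The collagenase MMP1 did not pass at 77.7 CPM in PF+3%PEGDA and 48.1 CPM in 2D.

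YAP and TAZ targets and contractile genes were mostly lower or not called. Of 24 YAP and TAZ targets 0 were higher and 12 lower (median log2 ratio -1.07). CCN1 measured 69.8 CPM in PF+3%PEGDA and 351 CPM in 2D, CCN2 78.7 and 180.3 CPM, and the receptor kinase AXL 48 and 232 CPM. FJX1 and AJUBA were 9.31- and 3.71-fold lower. Of 24 contractile and SRF genes 1 was higher and 10 were lower, and several of the lower ones are smooth muscle genes. CNN1, or calponin, had 0 counts in PF+3%PEGDA and 77 in 2D, at least 24-fold lower. TAGLN measured 6.36 CPM in PF+3%PEGDA and 83.3 CPM in 2D, ACTA2 0.878 and 11.8 CPM, and TPM2 4.75 and 42.7 CPM. The cytoskeletal actins ACTB, at 4423 CPM in PF+3%PEGDA and 4559.8 CPM in 2D, and ACTG1, at 2538 and 1863 CPM, were not called. Actin genes are similar in sequence, so the counts of ACTA2 are the less certain. Among adhesion receptors ITGA3 was 4.6-fold lower and ITGA11, a collagen receptor of fibroblasts, 13.6-fold, while ITGB6 and ITGB8, which activate TGF-beta, were 3.63- and 3.13-fold higher.

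Fibroblast markers were lower as a list and uneven as genes. Of 22, 2 were higher and 15 lower (median log2 ratio -1.83). PDGFRB, a growth factor receptor of mesenchymal cells, measured 10.7 CPM in PF+3%PEGDA and 149 CPM in 2D, THY1 5.56 and 30.9 CPM, and IGFBP7 10.2 and 179.5 CPM. Other markers stayed within 2-fold, with PDGFRA at 24.8 CPM in PF+3%PEGDA and 17.5 CPM in 2D, TWIST1 at 17.4 and 18.1 CPM, FOXD1 at 31.3 and 35.2 CPM and decorin, DCN, at 9.29 and 11.9 CPM. S100A4 was higher at 98.3 against 39.9 CPM. In these bulk libraries, fewer cells of a type and less RNA per cell cannot be told apart.

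A gene that PC-3 lacks gives a further reading. CTNNA1, deleted in PC-3, stood at 8.26 CPM in PF+3%PEGDA and 33.3 CPM in 2D, 4.03-fold lower (interval 3.27 to 4.99). In a panel of 13 fibroblast markers 9 were lower and 1 higher, and its summed level was 570.0 CPM in PF+3%PEGDA and 3457 CPM in 2D. In both libraries most of this sum came from COL1A1, COL1A2 and COL3A1, so it largely repeats the drop in collagen genes. The matrix gene POSTN was at 0 counts in PF+3%PEGDA. In the panel of 8 prostate epithelial markers 0 were lower and 4 higher, and the sums were 4961 CPM in PF+3%PEGDA and 3010 CPM in 2D. How far a change in cell proportions enters the matrix, contractile and chemokine lists was not tested.

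Epithelial genes were mostly not called or higher. Of 41, 12 were higher and 2 lower (median log2 ratio 0.32). E-cadherin, CDH1, measured 375 CPM in PF+3%PEGDA and 172 CPM in 2D, 2.18-fold higher (interval 2.08 to 2.28), and the epithelial transcription factor ELF3 384 and 152 CPM. KRT8 rose to 918 CPM in PF+3%PEGDA against 431 CPM in 2D, while its partner KRT18 did not pass at 602 and 649 CPM. The lipocalin LCN2 was 5.12-fold lower. Among the genes called lower, the largest loss in CPM was that of the hair-type keratin KRT81, at 783 CPM in PF+3%PEGDA and 4922 CPM in 2D, and close relatives in sequence make its counts uncertain. Of 23 genes of mesenchymal transition 2 were higher and 10 lower, among them SNAI2 at 6.44 CPM in PF+3%PEGDA and 56.4 CPM in 2D and N-cadherin, CDH2, at 24.4 and 129 CPM. VIM, at 1390.0 and 1859.9 CPM, and CD44, at 274 and 268 CPM, did not pass.

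Several prostate lineage genes were higher. Of 17 androgen-linked and prostate genes 9 were higher and 2 lower (median log2 ratio 1.42). The serine protease TMPRSS2 measured 299.9 CPM in PF+3%PEGDA and 42.7 CPM in 2D, the transporter SLC45A3 225 and 39.9 CPM, and the homeobox factor HOXB13 789 and 296 CPM. The surface antigen PSCA was 20.4-fold higher. The retinal dehydrogenase ALDH1A3 was 3.17-fold lower.

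Most genes in a list of epithelial ion transport were higher. Of 18 genes 11 were higher and 0 lower (median log2 ratio 1.53), of which CA9 and CA12 are also HIF targets. All subunits of the epithelial sodium channel in the list rose, SCNN1G to 71.8 CPM in PF+3%PEGDA against 2.26 CPM in 2D, SCNN1B to 40.3 against 1.78 CPM and SCNN1A to 19.9 against 2.81 CPM. The chloride cotransporter SLC12A2 was 10.0-fold higher at 462 against 46.1 CPM. The sodium pump subunit ATP1B1 was 2.42-fold higher.

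Lipid genes rose in the storage and cholesterol branches. Of 25 cholesterol genes 12 were higher and 0 lower (median log2 ratio 0.99). The early enzyme HMGCS1 stood at 163 CPM in PF+3%PEGDA, against 47.9 CPM in 2D, and the brake INSIG1 was 3.24-fold higher. In fatty acid synthesis 3 of 15 were higher, among them the desaturases SCD, 2.09-fold, and FADS2, 2.71-fold, while FASN stood at 761 and 516 CPM. Of 27 lipid droplet and PPAR-linked genes 13 were higher and 3 lower. PLIN2, a coat protein of lipid droplets, measured 181 CPM in PF+3%PEGDA and 48 CPM in 2D, and the lipase PNPLA2, which opens them, 116 and 243 CPM. PNPLA2 was 2.1-fold lower, close to the rule, and on total-count scaling it was not called.

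The signalling and immune lists differed in direction and in the share called, beside 11.8% higher and 10.8% lower of all tested genes. Of 24 chemokines and interleukins 2 were higher and 10 lower, with IL6 at 0.731 CPM in PF+3%PEGDA and 8.22 CPM in 2D, CXCL1 at 4.17 and 25.2 CPM and CXCL12 at 0.146 and 4.59 CPM. CXCL8 did not pass at 61.1 and 65.9 CPM. Of 33 interferon-stimulated genes 1 was higher and 7 lower, among them ISG15 at 1308 CPM in PF+3%PEGDA and 3325 CPM in 2D. Immediate early genes were 1 higher and 6 lower of 24, with IER3 at 205 and 634 CPM. Of 15 EGF family genes 2 were higher and 5 lower, and among the lower ones AREG and EPGN were 3.67- and 11.6-fold lower. Of 16 Notch pathway genes 2 were higher and 4 lower (median log2 ratio -0.04). The share higher lay near that of all tested genes, and the ligands went both ways. JAG1 fell to 59.2 CPM in PF+3%PEGDA against 337 CPM in 2D and DLL4 to 5.34 against 40.6 CPM, while JAG2 was 2.24-fold higher at 55.6 against 24.9 CPM. In the IGF axis the binding proteins diverged, since IGFBP5 was 5.03-fold higher at 649 against 129 CPM and IGFBP4 7.59-fold lower at 213 against 1616 CPM. Metallothionein MT2A was 3.11-fold lower, and of 28 NRF2 antioxidant genes 7 were higher and 0 lower, with the peroxidase GPX2 at 38.8 CPM in PF+3%PEGDA and 2.26 CPM in 2D.

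Some genes known from other cell types were present although the labels name only an epithelial and a fibroblast line. The endothelial receptor KDR measured 226 CPM in PF+3%PEGDA and 22.1 CPM in 2D, and the adhesion gene PECAM1 86.2 and 7.19 CPM. The defining endothelial markers VWF, CLDN5 and EMCN had 2, 2 and 1 counts in PF+3%PEGDA and 0, 0 and 0 in 2D, and TIE1 had 22 and 18. Of 4 tested genes in the endothelial panel 3 were higher, and its summed level over 8 genes was 358.8 CPM in PF+3%PEGDA and 39.6 CPM in 2D. The endothelial-type genes FLT1 and ESM1, outside that panel, were lower, FLT1 to 2.49 CPM in PF+3%PEGDA against 43.7 CPM in 2D and ESM1 to 1.32 against 40.0 CPM. Of the adipocyte genes, FABP4 and PPARG had 1580 and 6849 counts in PF+3%PEGDA and 21 and 4422 in 2D, whereas PLIN1 and CIDEC had 58 and 8 counts in PF+3%PEGDA and 9 and 0 in 2D. The part of other cell types in these values was not tested.

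Cell division genes were higher than in 2D or not called, and many were lower than in the other tissues. Of 30 genes of G2 and M phase 7 were higher than in 2D and 0 lower (median log2 ratio 0.48). The list had 22 members higher in PF+2%PEGDA against 2D (median 1.40, where 11.6% of all tested genes were higher and 9.89% lower) and 27 in PF against 2D (median 2.01, where 14.6% were higher and 12.7% lower). These comparisons share the 2D library. MKI67, which encodes Ki-67 (chromosome 10, 128096659 to 128126385, GRCh38), measured 119 CPM in PF, 49 CPM in PF+2%PEGDA, 25.8 CPM in PF+3%PEGDA and 7.6 CPM in 2D. The kinase CDK1, which drives entry into mitosis, measured 87.7, 83.3 and 44.2 CPM in PF, in PF+2%PEGDA and in PF+3%PEGDA and 6.44 CPM in 2D, and its ratio in PF+3%PEGDA against 2D was 6.86 (interval 5.52 to 8.62). PLK1, a mitotic kinase, had 25.1, 26.8 and 12.4 CPM in the 3 tissues and 11.3 CPM in 2D, so the PF+3%PEGDA level lay close to that of 2D.

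S phase genes were higher or not called. Of 33, 13 were higher and 0 lower (median log2 ratio 0.73). The nucleotide enzymes RRM2 and TYMS stood at 81.9 and 82.1 CPM in PF+3%PEGDA, against 7.46 and 13.4 CPM in 2D, and the cyclin CCNE2 at 3.36 against 0.479 CPM. The sliding clamp PCNA did not pass at 118 CPM in PF+3%PEGDA and 70.9 CPM in 2D. Among cell cycle brakes CCNG2 was 5.75-fold higher and CDKN2C 2.82-fold, while CDKN1A measured 50.5 CPM in PF+3%PEGDA and 90.4 CPM in 2D.

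**Figure D4:**
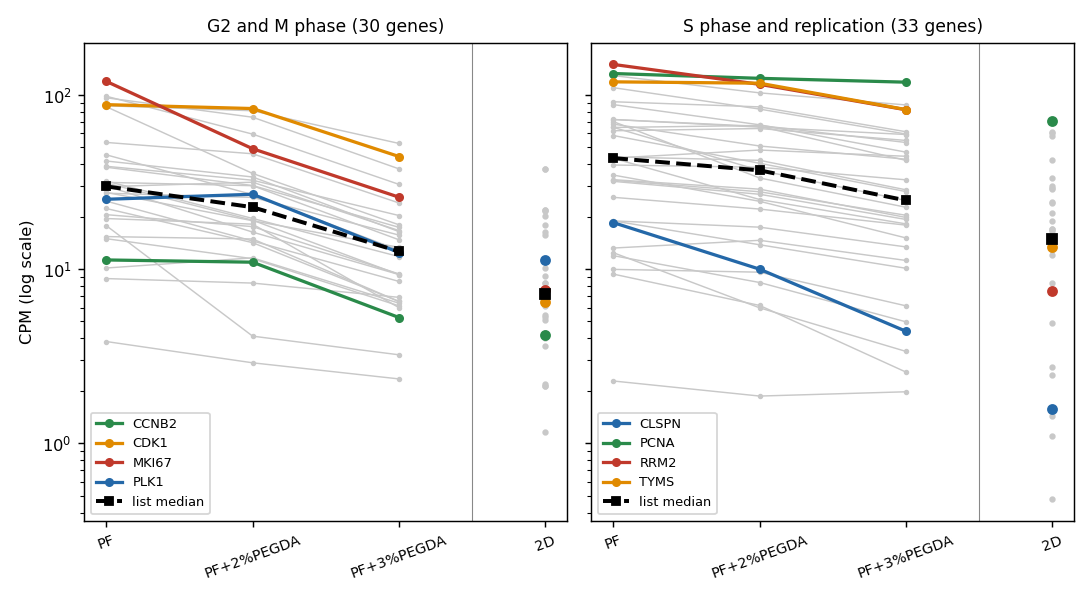
Levels of the tested G2 and M phase genes (left, 30 genes) and S phase genes (right, 33 genes) in CPM on a log axis in the 3 tissues and in 2D, with 4 genes coloured in each panel and the list median dashed. Lines join the 3 tissues and the 2D values stand apart as points. MKI67 reads 25.8 CPM in PF+3%PEGDA and 7.6 CPM in 2D, and PLK1 12.4 and 11.3 CPM.

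Set against the other tissues, PF+3%PEGDA had 262 genes higher (1.82%) and 252 lower (1.75%) than PF+2%PEGDA, 3.57% in all. Against PF it had 533 higher (3.7%) and 864 lower (5.99%), 9.69% in all. Of the G2 and M phase genes, 9 were lower in PF+3%PEGDA than in PF+2%PEGDA and 22 lower than in PF, with 0 higher in both comparisons. The hypoxia list gave 0 calls in either direction against PF+2%PEGDA and 4 higher and 1 lower against PF. Ribosomal proteins gave 0 calls against PF+2%PEGDA and 15 higher against PF, whose library had the lowest levels of them. Against PF the same medians were 0.26 in the shortest length group and -0.16 in the longest. The part of transcript length in the differences between these 2 libraries was not tested.

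In 45 genes (0.312% of those tested) PF and PF+2%PEGDA were both higher than 2D while PF+3%PEGDA was lower than both of them. Of these, 8 were in the G2 and M phase list, BUB1B, CCNB2, CDCA8, DLGAP5, HMMR, KIF20A, PLK1 and PRC1, and CLSPN and MCM10 were in the S phase list. In 10 of the 45, 0.0694% of the tested genes, PF+3%PEGDA was still called higher than 2D. BUB1B, a kinase of the spindle checkpoint, measured 31.1, 19 and 9.29 CPM in PF, in PF+2%PEGDA and in PF+3%PEGDA and 6.71 CPM in 2D. The mitotic kinesin KIF20A measured 19.5, 18.1 and 6.0 CPM in the same tissues and 4.31 CPM in 2D. ESCO2, which joins sister chromatids, stood apart from these, since its 5.41 CPM in PF+3%PEGDA remained above the 0.137 CPM of 2D (it was chosen after its values were seen). The opposite pattern held in 21 genes (0.146%), and in 2 of them (0.0139%) PF+3%PEGDA was still called lower than 2D. GREM1, a BMP antagonist of fibroblasts, was among those still called lower. It measured 3.06, 3.09 and 7.02 CPM in PF, in PF+2%PEGDA and in PF+3%PEGDA and 36.9 CPM in 2D. Of the 21 genes 9 (42.9%) had counts that were not whole, against 28.1% of all tested genes.

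Promoters of 4 of the mitotic genes are shown because they hold the cell cycle homology region (CHR), TTTGAA on either strand, through which the DREAM and MuvB complexes time their expression. They are RefSeq sequences on GRCh38.p14, the last 60 bases before the start, with the element in capitals. CCNB2 spans chr15:59105086-59105145, plus strand; PLK1 chr16:23678829-23678888, plus strand; BUB1B chr15:40161009-40161068, plus strand; CDCA8 chr1:37692456-37692515, plus strand.
CCNB2: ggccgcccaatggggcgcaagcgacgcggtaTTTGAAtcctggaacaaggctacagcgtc
PLK1: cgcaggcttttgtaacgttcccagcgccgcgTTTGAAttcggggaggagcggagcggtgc
BUB1B: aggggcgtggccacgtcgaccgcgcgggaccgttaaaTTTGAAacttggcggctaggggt
CDCA8: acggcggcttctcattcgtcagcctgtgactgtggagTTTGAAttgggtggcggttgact
The letters were present in 17 of 25 matched G2 and M phase promoters (68.0%) and in 15.4% of all 27305 promoters of the same length. Of 29 S phase promoters 1 held them. A CCAAT box was present in 20 of the 25 (80.0%), against 35.7% of all promoters. The list holds known cell cycle genes, so these matches are not independent of it and describe letters only.

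PF+3%PEGDA stood apart from all 3 other libraries, 2D included, called in 1 direction against each of them, in 51 genes that were higher (0.354%) and 80 that were lower (0.555%). Of the 51, 3 reached 5 CPM in PF+3%PEGDA or in 2D, namely MMP3, SFT2D3 and BIVM-ERCC5, and counts of the last 2 were not whole. MMP3, which cleaves matrix proteins and activates other proteases, was the one among them with the highest CPM, with 5.09, 5.66 and 15.2 CPM in PF, in PF+2%PEGDA and in PF+3%PEGDA and 2.81 CPM in 2D. Its PF+3%PEGDA level was 5.42-fold that of 2D (interval 3.86 to 7.77). CXCL10, an interferon-induced chemokine, measured 1.02, 0.708 and 3.29 CPM in the tissues and 0.342 CPM in 2D, and NRG1, a ligand of ERBB3, 1.44, 1.09 and 3.8 CPM and 0.753 CPM. The myeloid receptor gene TREM1 measured 1.86, 2.06 and 4.9 CPM and had 0 counts in 2D. CXCL10, NRG1 and TREM1 were chosen after their values were seen.

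The lower ones included matrix and adhesion genes. COL1A2 measured 121, 105 and 49.4 CPM in PF, in PF+2%PEGDA and in PF+3%PEGDA and 875 CPM in 2D. COL5A3, COL8A1, COL15A1 and COL27A1 were in this set too, and COL15A1 measured 3.24, 4.57 and 0.805 CPM and 26 CPM in 2D. TNS4, a focal adhesion protein of epithelial cells, measured 19.2, 15.8 and 6.14 CPM in the tissues and 53.5 CPM in 2D, and ACTA2 1.86, 2.83 and 0.878 CPM and 11.8 CPM. COL1A1, the partner of COL1A2, did not stand apart in this way, with 307, 365 and 246 CPM and 1751 CPM. The read-through symbols ABCF2-H2BE1, EEF1E1-BLOC1S5 and BORCS8-MEF2B, which join the names of neighbouring genes, led the lower ranking. Their reads were divided with the parent genes, so their values are uncertain. With only genes of whole counts, 41 higher and 51 lower genes were left.

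**Figure D5:**
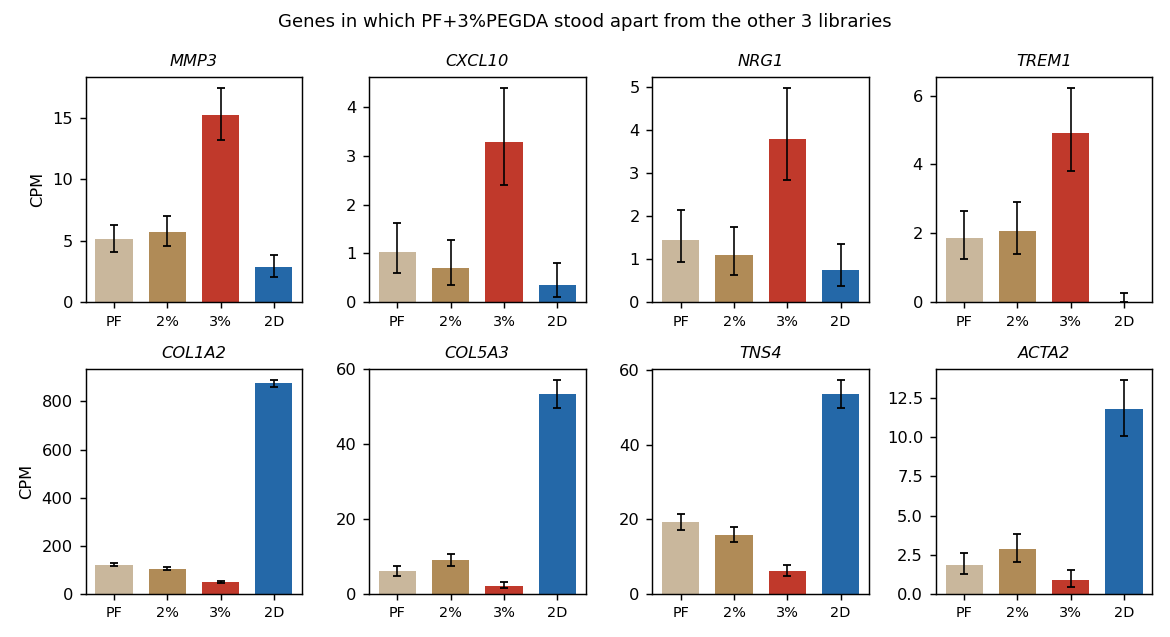
CPM of 8 genes in which PF+3%PEGDA stood apart from PF, PF+2%PEGDA and 2D, with bars from 0 and exact Poisson 95% intervals that cover counting error only. MMP3, CXCL10, NRG1 and TREM1 (top) are highest in PF+3%PEGDA, and COL1A2, COL5A3, TNS4 and ACTA2 (bottom) are lowest there.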

How the data were processed

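The 4 RNA sequencing libraries came as 1 deposited table, in which the authors give an expected count (an estimate of the reads) for each gene. Per the submitters' processing notes the tools were FastQC, STAR and Partek and the build hg38. Versions, the counting method and the annotation are not given in the sources used here. Per the labels' protocols, total RNA was purified with QIAshredder and RNeasy and libraries were made with the TruSeq RNA v2 kit, which does not keep strand, so reads of a gene and of an antisense partner cannot be told apart. Values were rounded to whole counts (18.2% to 19.9% of values in a library were not whole at a tolerance of 0.01) and the library sizes were scaled by TMM (edgeR 4.0.16, under R 4.3.3) over all 4 libraries. CPM are counts per 1000000 of the scaled library size. Ratios are of CPM, log2 ratios use a prior count of 0.5, and intervals are exact Clopper-Pearson 95% intervals of the ratio. No test between groups was possible with 1 library each. A fold against a library with 0 counts is a bound that sets this library to 3 counts. Panel and list sums are of CPM, and levels are not divided by gene length, so they were compared between libraries and not between genes. The rest used Python 3.11.15 (pandas 2.3.3, numpy 2.4.6, scipy 1.17.1, matplotlib 3.10.9). The calls were tested on simulated data with counting error alone.

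Of the 14417 genes, 13802 were matched to GENCODE 29 on the same chromosome, which gave coordinates on GRCh38, and 13804 had a transcript length (the longest transcript). RefSeq promoters were matched for 11414 genes, which is fewer than 80 in 100 and voids a comparison over all tested genes. Shares are therefore read against all promoters, and the lists named had over 80 in 100 of their members matched. Genes named had at least 5 CPM in the higher library and were called, ranked by the interval bound nearest to equality. The ranking took 15 in each direction, 8 in each direction by difference in CPM, up to 4 per list and direction with the 2 most abundant not called, 8 and 6 in each direction for the 2 sets defined over the 4 libraries, and a fixed set of 16, and some of these genes are not reported here. Further list members are given to show how a pathway moved and were chosen after their values were seen. In the lists 72 member entries were below 1 CPM in both libraries and were not tested. The genes, the 64 lists and the rules were chosen with earlier results of these data known.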

Additional observations from a re-analysis of the deposited data

Results flagged for a closer look

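In 2 of the named genes PF+3%PEGDA and another tissue were called in opposite directions against 2D, and with 1 library per group the difference was not tested. SFT2D3 had a log2 ratio of 4.41 in PF+3%PEGDA against 2D and of -3.89 in PF against 2D. It had 129 counts in PF+3%PEGDA, 0 in PF and 6 in 2D, so the value for PF is set by the prior count of 0.5 and is no measured fold. BIVM-ERCC5, a read-through symbol, had log2 ratios of -1.51 in PF, -1.40 in PF+2%PEGDA and 1.17 in PF+3%PEGDA, each against 2D. Both had counts that were not whole in some library, so their reads were shared with other genes. Over all tested genes, 4 were higher in PF+3%PEGDA and lower in PF against 2D, and 13 were lower in PF+3%PEGDA and higher in PF. No group had the 4 samples that a search for outlying samples needs.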

How the results depend on the processing

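No paired analysis was possible because each group had 1 library, and no library could be left out for the same reason. Against 2D, DESeq2 1.42.0 size factors, total counts, upper-quartile scaling, no filter on low counts, a prior count of 2, unrounded values and a 99% interval each left the numbers of higher and of lower genes within 1.5 times. Asking for 5 CPM left 1132 genes higher, and a 4-fold rule left 611 higher and 470 lower. An added alternative, chosen after seeing the data, kept only genes whose counts were whole in all 4 libraries, and fewer genes were then tested. It left 167 genes higher in PF+3%PEGDA than in PF+2%PEGDA, 51 lower than in the other 3 libraries, and 12 lower than 2D in PF and PF+2%PEGDA but higher in PF+3%PEGDA. Scaling by total counts raised log2 ratios by 0.09 and moved the median of cytosolic ribosomal proteins to -0.22. Under it the medians of the heat shock, Notch, VEGF and reference gene lists took the other sign. GAPDH, CDCA3 and SOD2 passed 2-fold under total-count and upper-quartile scaling, and SQSTM1, TJP1 and ZNRF3 no longer did. In all, total-count scaling took the call from 11 named genes and gave one to 5, and DESeq2 size factors took it from 1. No named gene changed direction. Depth limits what can be said of scarce genes, since 1 count was worth up to 0.0731 CPM.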
